A study of Rattus norvegicus with 12 samples.

Results

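Ldha and Pdk3 act at the point where the cell decides what becomes of pyruvate, and both were read on microarrays of rat synovium, the lining membrane of the joint. They are 2 of the 29 genes that carry a name here among the 38804 probes of the array, and each was read by 1 catalogue probe printed as 10 spots: A_44_P210461 for Ldha (accession NM_017025) and A_44_P443343 for Pdk3 (NM_001106581). The study has 12 samples, all from male rats: 4 from normal rats (Control), 4 from rats in which arthritis was induced with collagen (CIA), used as a model of rheumatoid arthritis, and 4 from CIA rats that were also given a herbal medicine, Bi Zhong Xiao Decoction (BZXD). The labels give no strain, age, dose or length of treatment. RNA freed of ribosomal RNA was copied by random priming and labelled with Cy3, and 1 array was hybridised per sample. Nothing in the labels says that the 4 samples of a group came from separate animals, beyond each being a sample of its own. Both genes were chosen with their levels on these same 12 arrays known, so the levels and group differences below are descriptions with their errors, and none is given a test.

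Pyruvate, the end product of glycolysis, can be reduced to lactate in the cytosol or carried into mitochondria and oxidised. Ldha encodes the A subunit of lactate dehydrogenase, which catalyses the step between pyruvate and lactate and regenerates the NAD+ that glycolysis needs. Pdk3 encodes 1 of the pyruvate dehydrogenase kinases, which phosphorylate the pyruvate dehydrogenase complex and so restrain the entry of pyruvate carbon into the mitochondrial cycle. Ldha is a textbook target of the hypoxia-inducible factor HIF-1 and Pdk3 a less established one, and lactate accumulates in inflamed joints.

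The sequence just before each gene's start is shown because ACGTG, the core of the element that HIF-1 binds, occurs in both. The 250 bases come from the RefSeq promoter table on build GRCr8, printed 5′ to 3′ on the gene's strand, with each match to ACGTG on either strand in capitals. The Ldha stretch lies at chr1:106507842-106508091 on the + strand and the Pdk3 stretch at chrX:62547372-62547621 on the - strand.
Ldha: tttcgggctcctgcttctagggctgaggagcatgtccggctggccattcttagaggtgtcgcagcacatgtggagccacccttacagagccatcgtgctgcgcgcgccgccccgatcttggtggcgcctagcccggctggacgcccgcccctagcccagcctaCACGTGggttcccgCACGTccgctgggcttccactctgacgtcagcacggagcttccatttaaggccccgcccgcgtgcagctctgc
Pdk3: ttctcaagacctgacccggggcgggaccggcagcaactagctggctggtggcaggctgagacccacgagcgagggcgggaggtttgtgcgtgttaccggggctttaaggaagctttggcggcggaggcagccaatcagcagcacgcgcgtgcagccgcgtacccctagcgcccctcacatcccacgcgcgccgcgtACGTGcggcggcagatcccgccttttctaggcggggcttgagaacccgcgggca

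ACGTG matched the Ldha stretch 1 time on the + strand and 2 times on the - strand of the gene, where 1 match of each kind overlaps in the palindrome CACGTG. It matched the Pdk3 stretch 1 time. At least 1 match was present in 16.6% of the 33469 promoter stretches of this length, and as many as in Ldha in 1.26%, with palindromes counted on both strands throughout. The related core GCGTG matched Ldha 1 time and Pdk3 4 times, 2 on each strand, against at least 1 match in 25.9% of all stretches and 4 or more in 0.855%. Both stretches are rich in G and C, at 66.4% for Ldha and 68.0% for Pdk3 where the median stretch had 51.2%. The base pair step CG, which both cores contain, occurred 22 times in Ldha and 28 times in Pdk3, against a median of 5. The shares above do not allow for this. A match is a run of letters in the window and no binding was measured here.

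The arrays of a group were all scanned together and apart from those of the others, so the scan and the group cannot be told apart, here or below. Each group also took slide positions 1 to 4 once, so a slide of its own could not be told apart from the group either. The 75th percentile of probe intensity, the value by which each array was scaled, ran from 54.3 to 69.6 in Control, 91.1 to 118 in CIA and 24.7 to 32.7 in BZXD, and in the same order 73.8% ± 5.98, 75.8% ± 6.54 and 49.4% ± 4.10 of probes were well above background (SD, n = 4 each). The part of these gaps in the results below was not tested. Only the 50 catalogue probes printed as 10 spots were matched to gene symbols. None of the 45 genes of glycolysis and pyruvate handling on a fixed list, such as Ldhb, Pdk1, Pdk2, Pdk4, Pdha1 and Hif1a, is named among them, so the rest of the pathway is not analysed here. Of 50 markers of synovial and neighbouring cell types only Cyp2e1 and Map2 are named, so the cell makeup of the tissue was not checked. In bulk tissue, fewer cells of a type and less RNA per cell cannot be told apart.

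Ldha was bright on every BZXD array and read at or near background level on every Control and CIA array. Only 1 probe is named Ldha here, so whether its reading follows the transcript level was not checked. Processed intensity is the final signal that the scanner software gives a spot, and its geometric mean over unmarked spots is given here. On the BZXD arrays the Ldha probe read 44.9, 131, 60.1 and 59.2 in replicates 1 to 4. On the Control arrays the same probe read 1.75, 1.20, 1.52 and 1.13, and on the CIA arrays 1.86, 1.35, 1.71 and 1.49. The lowest BZXD array therefore stood far above the highest array of the other groups, with BZXD replicate 2 the brightest of all.

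After scaling, the Ldha level was 0.86, 2.0, 0.93 and 1.13 on the 4 BZXD arrays, in log2 units relative to each array's 75th percentile. It was -5.28, -5.86, -5.15 and -5.85 in Control and -5.78, -6.45, -5.74 and -6.25 in CIA. The group mean was 1.23 ± 0.52 for BZXD, -5.54 ± 0.37 for Control and -6.05 ± 0.35 for CIA (SD over 4 arrays). BZXD thus lay above the 75th percentile of its arrays and the other groups at the bottom of theirs. Control and CIA overlapped, with 2 of the 4 CIA arrays below all Control arrays.

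**Figure D1:**
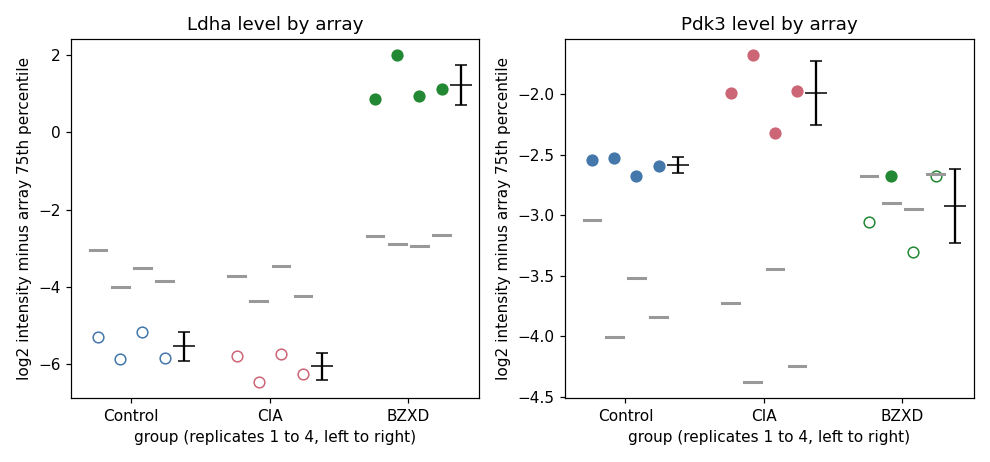
Scaled log2 level of Ldha (left) and Pdk3 (right) on each of the 12 arrays, with filled points where the probe was well above background, open points where it was not, and a black bar for the group mean ± SD (n = 4). Grey ticks mark the dimmest probe that was still well above background on that array. All 8 Control and CIA points of Ldha are open and lie below their ticks, and 3 of the 4 BZXD points of Pdk3 are open.

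The single spots show what the low Ldha values are. In Control, 0 of the 36 unmarked Ldha spots were well above background, and in 15 of them the spot was no brighter than its background. In CIA the counts were 0 of 36 and 23. The scanner software still gives such spots a small positive processed value, between 0.948 and 2.68 over the Control spots and between 1.18 and 4.77 over the CIA spots. In BZXD all 37 unmarked spots were well above background, from 39.0 to 142. A weaker mark, that a spot's signal is positive and differs from background, was met by 14 of the 36 Control spots and 8 of the 36 CIA spots. On Control replicate 3 it was met by 7 of 9. The Ldha levels of Control and CIA are therefore readings at or near background. Their difference of -0.52 ± 0.26 (SE, n = 4 per group) sets 1 such level against another. Unscaled, that difference had the opposite sign, at 0.21.

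For the same reason the size of the Ldha difference is not a measured one. Each dim array was set at the lowest signal that was well above background on it. On this basis Ldha was 36.2-fold higher in BZXD than in CIA and 28.5-fold higher than in Control. A probe that was not well above background could still read above that signal, as Ptk2b did on BZXD replicate 2 (-2.84 against -2.90). These folds are therefore not strict lower bounds, and they hold for the scaling used. They were 46.0 and 39.1 with median scaling and 38.6 and 35.4 with quantile normalization, but only 9.86 and 12.8 on unscaled intensities, and 4.16 and 3.26 where a constant of 50 was added to every background-corrected spot. Without each array in turn they ranged from 30.3 to 40.6 over CIA and from 23.8 to 32.4 over Control. The differences of the means were 7.28 ± 0.32 and 6.77 ± 0.32 log2 units (SE, n = 4 per group), but they rest on the near-background values of the dim groups. Their direction was the same under all scalings and background corrections run, and only the size moved, down to 2.09 and 1.72 with the added constant. BZXD did not overlap with CIA or with Control, and 21.8% of all probes lay above without overlap in each of these comparisons. Among the 31247 probes with a difference in both, 220 stood higher over CIA in BZXD than Ldha did and 173 higher over Control, or 0.704% and 0.554%. Ldha was kept as measured only because it was well above background on the 4 BZXD arrays, so it could be kept only by being high there.

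Within a BZXD array the Ldha spots agreed closely, and the arrays differed far more. The SD over spots was 0.083 to 0.130 on the log2 scale, which puts the SE of an array's mean at 0.028 to 0.041, against an SD of 0.52 between the 4 arrays. Replicate 2 lay farthest from the others, and it stood apart from the other BZXD arrays over the whole array too. Of 29449 probes with a value on every array it was the highest of the 4 BZXD arrays for 35.9% and the lowest for 42.7%, where the other BZXD arrays reached at most 29.1% and 24.3%. Shares of this size also occurred in CIA, where replicate 2 was the highest for 36.6% and replicate 3 the lowest for 40.8%. BZXD replicate 2 also had the largest share of marked spots, 3.29%. Without it the difference from CIA was 7.03 and that from Control 6.51.

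**Figure D2:**
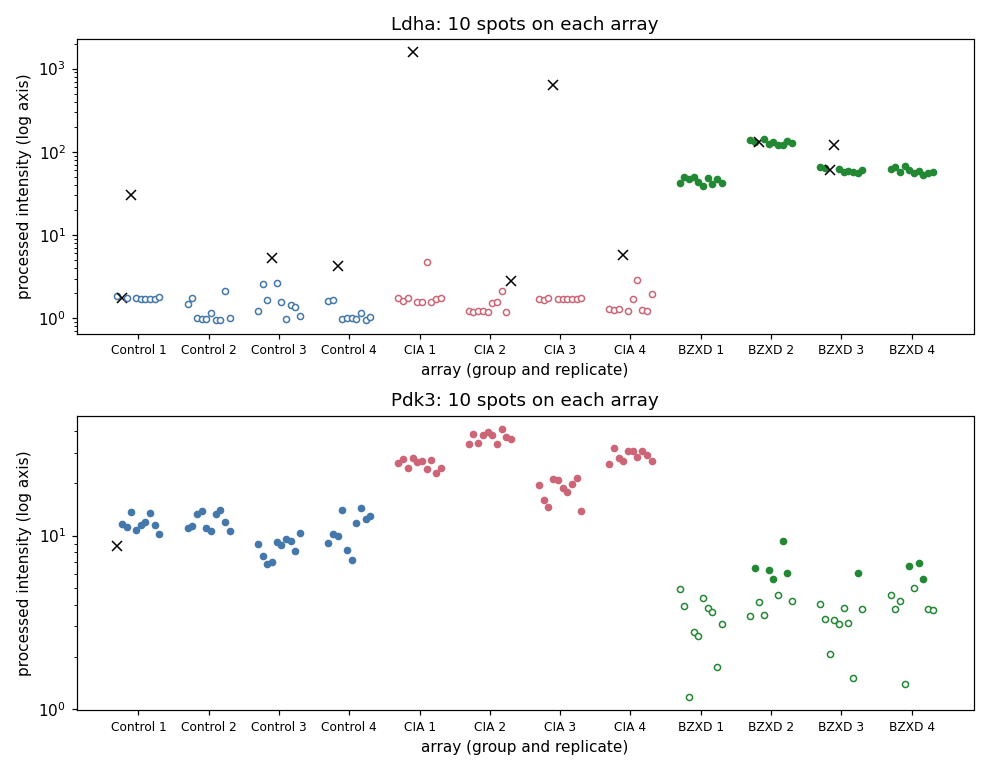
Processed intensity (log axis) of each of the 10 spots of Ldha (top) and Pdk3 (bottom) on the 12 arrays. Filled points were well above background, open points were not, and crosses are spots the software marked as outliers and that were left out of the means. The Ldha crosses at 1572 and 640 stand far above the other spots of CIA replicates 1 and 3.

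Of the 120 Ldha spots 11 were marked as outliers by the software, or 9.17%, against 1 of 120 for Pdk3 and 0.330% to 3.29% of all spots on an array. One spot, at row 199 and column 69 of the array, accounted for 6 of the 11. It read 1572 on CIA replicate 1, 640 on CIA replicate 3, 30.6 on Control replicate 1, 5.70 on CIA replicate 4 and 5.29 on Control replicate 3. On Control replicates 2 and 4 and CIA replicate 2 it was unmarked and read 0.985, 0.971 and 1.23, like the other copies of the probe. In these 8 arrays the highest of the other 9 spots was 4.77.

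The spot next to it holds another probe, ASRN6AP1B109741915V3, which is unnamed here and was singled out after its values were seen. That neighbour read 23500 and 29783 on CIA replicates 1 and 3, 18791 on Control replicate 1, 14704 on CIA replicate 4 and 6935 on Control replicate 3. On the 3 arrays where the Ldha spot was dark it read 557, 749 and 661. Among the 8 Control and CIA arrays, the 5 with a raised Ldha spot were thus the 5 with the brightest neighbour, though the order within the 5 was not the same. The BZXD arrays did not follow this. There the sixth marked reading was 119.6, on replicate 3, where the other 9 Ldha spots read 55.2 to 65.9 and the neighbour only 611. On BZXD replicates 1 and 4 the neighbour read 606 and 551, and on replicate 2 it read 20.5, and the Ldha spot was unmarked on these 3 arrays. The part of the neighbour in the raised spots was not tested. Leaving this position out on every array gave a difference of 7.26 between BZXD and CIA and 6.74 between BZXD and Control, nearly the values above. Keeping every marked spot gave 6.66 and 6.46.

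**Figure D3:**
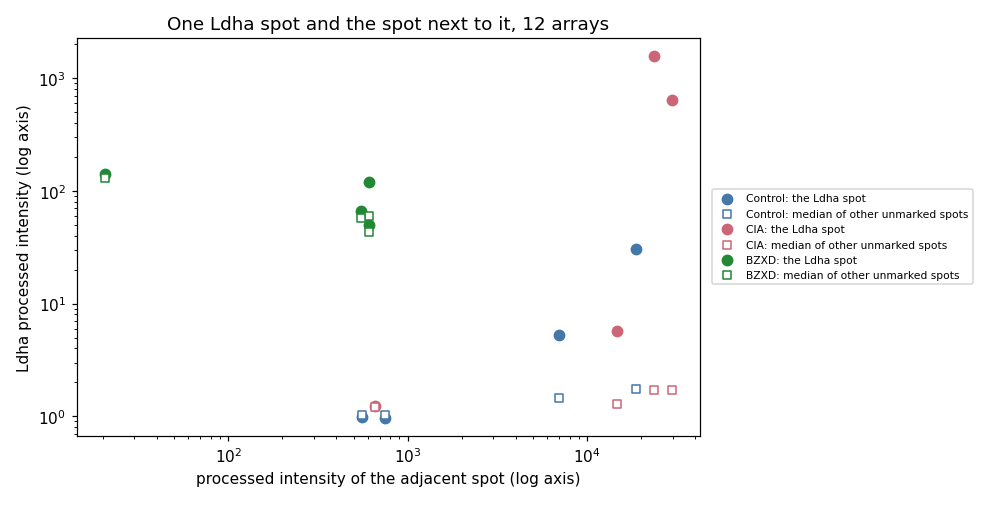
Processed intensity of 1 Ldha spot (filled circles) and the median of the other unmarked Ldha spots on the same array (open squares) against the processed intensity of the adjacent spot, both axes logarithmic, 12 arrays. The Control and CIA circles stand above the squares on the 5 arrays where the adjacent spot read 6935 or more, and lie on or beside them on the 3 where it read 749 or less. The circle of BZXD replicate 3 also stands above its square, at 119.6, where the adjacent spot read 611.

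Pdk3 was a dim but readable probe in Control and CIA and lay near background in BZXD. Its geometric mean processed intensity was 11.7, 12.1, 8.51 and 10.8 on the Control arrays, 25.9, 36.9, 18.2 and 28.9 on the CIA arrays and 2.98, 5.13, 3.21 and 4.24 on the BZXD arrays. Every CIA array was brighter than every Control array, and every BZXD array was dimmer than both. The arrays as a whole followed the same order, as the 75th percentiles above show, so a part of these unscaled gaps is shared by all probes.

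After scaling, Pdk3 stood at -2.54, -2.53, -2.67 and -2.59 in Control, -1.99, -1.68, -2.32 and -1.97 in CIA and -3.05, -2.67, -3.30 and -2.68 in BZXD. The group means were -2.58 ± 0.066, -1.99 ± 0.26 and -2.93 ± 0.31 (SD, n = 4 each). CIA had the highest mean, and which of Control and BZXD was lower depended on the setting, as given below. The Control arrays lay close together and those of the other groups spread more widely.

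Between CIA and Control the Pdk3 difference was 0.59 ± 0.14 log2 units (SE, n = 4 per group), or 1.51-fold higher in CIA. It turned to -0.065 under the correction with an added constant of 50, where every CIA array lay below every Control array. All 39 Control and 40 CIA unmarked spots were well above background. With the main scaling all 4 CIA arrays were above all Control arrays, with a gap of 0.21 between the nearest, and 5.50% of all probes showed this. The median of all probes was -0.08 and 5.04% of 31288 probes differed by more in this direction. Replicate 3 of CIA lay lowest and replicate 2 highest, and leaving out each array in turn gave differences from 0.49 to 0.70.

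Between BZXD and CIA the Pdk3 difference was -0.94 ± 0.20 on the log2 scale, and it turned to 0.44 under the correction with the added constant. The 4 BZXD arrays lay below all CIA arrays, with a gap of 0.35 between the nearest. Of all probes, 43.9% lay below without overlap, by a gap of any size. With median scaling or quantile normalization the groups overlapped, and with the added constant every BZXD array lay above every CIA array. The constant again exceeds the probe's intensity, so this last order cannot settle the direction. The median probe differed by -0.60 in this comparison and 41.9% of probes were lower still, and Pdk3 lay at -0.34 from the median. Only 9 of the 40 BZXD spots were well above background: 0, 5, 1 and 3 of 10 on replicates 1 to 4. The weaker mark, that a spot's signal is positive and differs from background, was met by all 40. Only replicate 2 counted as well above background as a probe, so the size of the difference is uncertain.

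Against Control the BZXD level of Pdk3 was -0.34 ± 0.16 on the log2 scale, a direction that median scaling, quantile normalization and the correction with the added constant each turned, to 0.12, 0.35 and 0.37. With the added constant every BZXD array lay above every Control array, with the same limit from the size of the constant. With the main scaling the BZXD arrays lay below every Control array, but by only 0.0012 at the nearest pair, and 46.7% of all probes lay below without overlap. The SE of a BZXD array's mean over its spots was 0.145 to 0.206, far wider than that gap, so the neighbouring levels of Control and BZXD cannot be put in order for Pdk3. The median of all probes was lower still, at -0.69. Without BZXD replicate 3 the difference was -0.22.

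Each Pdk3 difference was also set against the median probe of the same comparison. A scaling that shifts all probes of an array alike leaves this offset in place by construction, so the main scaling, median scaling and no scaling give 1 value, 0.67 log2 units for CIA minus Control, -0.34 for BZXD minus CIA and 0.35 for BZXD minus Control. Quantile normalization and the correction with the added constant can move it. They gave 0.87 and 0.11 for CIA minus Control and 0.81 and 0.096 for BZXD minus Control. For BZXD minus CIA they gave -0.042 and -0.053, where the SE of the difference itself was 0.20 and 0.035, so Pdk3 lay close to the median probe in both. A constant larger than a probe's intensity also shrinks its differences, which limits the values with the added constant.

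**Figure D4:**
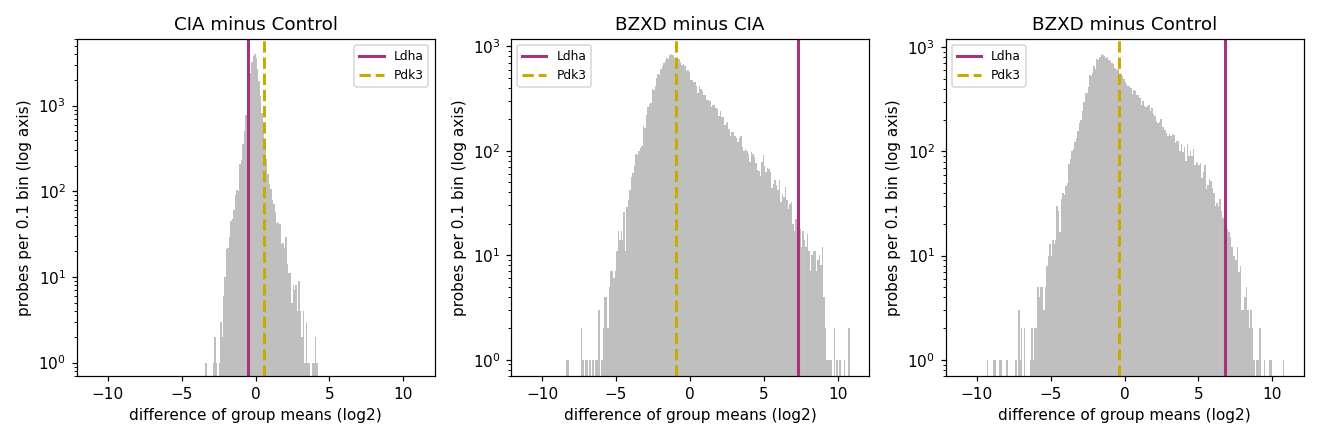
Number of probes (log axis) by difference of group means in bins of 0.1 log2 units, for the 3 comparisons, with Ldha as a solid and Pdk3 as a dashed line. Ldha lies in the far right tail in both BZXD comparisons, while Pdk3 lies in the right tail for CIA minus Control and near the middle of the probes in the other comparisons.

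The 2 genes did not follow 1 pattern. Ldha was highest in BZXD under every scaling and background correction run. Pdk3 was highest in CIA, where Ldha was at or near background, except under the correction with the added constant, where CIA was its lowest group. With each gene centred on its mean over the 12 arrays, the root mean square distance between them was 3.66 log2 units. The 3 comparisons share arrays with one another, so their values are not independent.

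Likeness to other genes was measured by this same distance over the 12 arrays, among 29448 other probes with a value on every array, 15 of them further named genes besides the other member. For Ldha the nearest named gene was Slc28a2, a concentrative nucleoside transporter, at 1.59, with 4.70% of the probes nearer. Slc28a2 was well above background on all 12 arrays and stood at -1.55 ± 0.41 for Control, -2.24 ± 0.11 for CIA and 1.82 ± 0.80 for BZXD (SD over 4 arrays), so it shares the high BZXD level but has a measured level in the other groups. Its maximum was on BZXD replicate 2, at 3.02, as was the highest BZXD value of all 6 named genes given here and in the next paragraph. Eif4b, a translation initiation factor, followed at 2.83 and Pop7, a subunit of ribonuclease P, at 3.08, which is far, since 26.0% of probes were nearer than Pop7. With quantile normalization or the added constant Pdcd10 took the place of Pop7. The nearest design probe was ASRN6AP1B100022470V3, unnamed here, at 0.16. It was well above background on the 4 BZXD arrays alone and stood at 0.95 ± 0.63 there against -5.75 ± 0.39 in Control and -6.18 ± 0.45 in CIA.

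For Pdk3 the nearest named genes were Ndfip1, an adaptor of ubiquitin ligases, at 0.28, Ptk2b, a calcium-responsive tyrosine kinase, at 0.31, and Med16, which belongs to the Mediator complex, at 0.45. Ndfip1 was measured on all 12 arrays, with 1.1 ± 0.16 in Control, 1.27 ± 0.33 in CIA and 0.39 ± 0.51 in BZXD. Ptk2b was well above background on 2, 4 and 0 arrays of the 3 groups, and Med16 on 4, 4 and 1. The 3 genes were the same with median scaling and quantile normalization, and none of them was among the nearest 3 with the added constant. The nearest design probe, ASRN6LNC1A100476394V3, lay at 0.14 and was well above background on all 12 arrays, at -1.23 ± 0.18 for Control, -0.61 ± 0.23 for CIA and -1.77 ± 0.40 for BZXD. Since all probes were read on the same arrays, these distances also hold whatever the slides share.

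**Figure D5:**
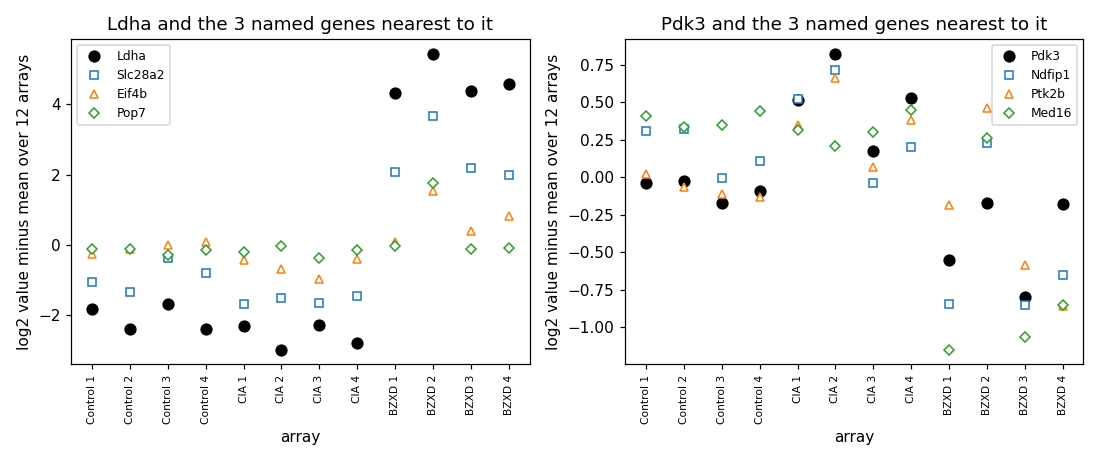
Scaled log2 value minus its mean over the 12 arrays for Ldha (left) and Pdk3 (right) as black circles, with the 3 nearest named genes as open symbols. Slc28a2 is high on the BZXD arrays like Ldha but with a smaller span, and Pop7 departs from its other values on BZXD replicate 2 alone, while the symbols of Ndfip1 and Ptk2b lie apart from Pdk3 on several BZXD arrays.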

How the data were processed

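Labelled RNA of 12 synovial samples was hybridised to 1-colour arrays whose header names design build rn4. Per the file headers, the authors ran Agilent Feature Extraction 11.0.1.1 on the scans, which gives each spot a background-subtracted intensity, a median intensity, a local background and 0 or 1 marks. The deposited log2 value table holds 38620 probes and 0 rows for these genes, so it gave no values here.

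Processed intensities were converted to log2, averaged over the spots of a probe without marked outliers, and the array's 75th percentile over non-control probes was subtracted. A probe was well above background where at least 50% of its unmarked spots were, and 31288 probes were kept that were so on at least 4 of 12 arrays. Overlap was counted over probes with values on every array of both groups. The 3 named genes nearest each member, and the nearest unnamed design probe, were taken by rule. Symbols were looked up only for the catalogue probes printed as 10 spots, by accession in the RefSeq table of GRCr8. Processed signals with other scalings, spot averages and limma 3.58.1 normexp (offset 50, R 4.3.3, median in place of mean spot signal) were alternatives. The counts and distances were tested on simulated data. Precision is limited by 4 arrays per group. At least 99.998% of spots differed between any 2 arrays. The members, lists and rules were chosen with earlier results of these data known.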

Additional observations from a re-analysis of the deposited data

Results flagged for a closer look

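One Ldha spot read high on CIA arrays and is left out of the means above, because the software marked it as an outlier there. It read 1572 on CIA replicate 1 and 640 on CIA replicate 3, above the 30.6 that was its highest reading on a Control array. The other 9 Ldha spots on those arrays read at most 4.77 and 1.74. The adjacent spot, which holds another probe, read 23500 and 29783 there, and its part was not tested. The same Ldha position was also marked on Control replicates 1 and 3, CIA replicate 4 and BZXD replicate 3.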

How the results depend on the processing

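The higher Ldha level in BZXD kept its direction in every setting run, and the difference from CIA was 6.63 with quantile normalization, 5.41 unscaled, 2.09 with normexp and an offset and 6.66 with marked spots kept, and that from Control 7.23 with median scaling, 5.62 unscaled and 1.72 with normexp. The Ldha difference between CIA and Control was -0.023 with quantile normalization, 0.21 unscaled and -0.37 with normexp, where the groups did not overlap. For Pdk3, CIA minus Control was 0.83 with quantile normalization, 1.32 unscaled and -0.065 with normexp. BZXD minus CIA was -0.59 with median scaling, -0.49 with quantile normalization, -2.81 unscaled and 0.44 with normexp. BZXD minus Control was 0.12, 0.35, -1.49 and 0.37 in the same order. Normexp with an offset moved the median of all probes from -0.60 to 0.49 for BZXD minus CIA and from -0.69 to 0.27 for BZXD minus Control, and unscaled values moved it to -2.47 and -1.84. With an array left out in turn, Ldha ranged from 7.03 to 7.40 over CIA, from 6.51 to 6.89 over Control and from -0.62 to -0.38 for CIA minus Control, and Pdk3 from 0.49 to 0.70, from -1.05 to -0.81 and from -0.43 to -0.22.

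Over all probes, 6521 did not overlap between CIA and Control, 19368 between BZXD and CIA and 20366 between BZXD and Control. Of the 12220 probes that every array read well above background, the counts were 2595, 7967 and 8137, as fewer probes were counted, and normexp gave 16829 for CIA and Control. Of the probes that did not overlap with the 75th percentile scaling, the share that was higher in the first group was 26.1%, 33.1% and 31.8%. The same share among the probes that did not overlap under another setting was 52.5%, 42.5% and 44.0% with median scaling and 11.3%, 76.5% and 73.7% with normexp, and 36.6% for CIA and Control with quantile normalization.

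With the replicate number as a block the differences are the same by construction, and the SD of the 4 same-numbered differences was 0.09, 0.85 and 0.83 for Ldha and 0.21, 0.16 and 0.27 for Pdk3 in the order CIA minus Control, BZXD minus CIA, BZXD minus Control. The replicate number is also the array's position on its slide. Not every same-numbered pair had deviations correlated above 0.1, the level set for taking samples as paired: 8 of 12 did, from -0.13 to 0.57, and a sample was closest to its own number in 9 of 24 comparisons. Within numbers 1 to 4 the Ldha difference of CIA minus Control, between readings at or near background, was -0.50, -0.58, -0.58 and -0.40, below 0 in all 4. The deposited value table holds neither probe, so that alternative gave no value. Leaving out 1 Ldha position and the Ldha folds over the lowest well-above-background signal under other settings were added after seeing the data.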
